A study of Mus musculus with 16 samples.

Results

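The genes described here are the 6 keratins Krt7, Krt8, Krt18, Krt19, Krt20 and Krt23, named as simple-epithelial and stress keratins and found on the array by their symbol. Each of the 6 had 1 probe set that carried no other symbol, and that probe set stands for its gene, so the set is 6 of the 18820 genes measured. RNA of whole liver from 16 male mice aged 7 days was hybridised to one-colour Affymetrix whole-transcript arrays, 1 animal per array and 4 animals in each of 4 genotypes, all on a mixed C57/BL6 - SV129Ola background.

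The genotypes are named as labelled. WT animals had no Cre recombinase and carried the loxP-flanked alleles of the matching cross. In TRAF2/Casp8 KO livers (TRAF2/Casp-8LPC-KO), alfp-Cre deleted Traf2 and Casp8 in liver parenchymal cells, which leaves the other cells of the liver with intact alleles. RIPK3 triple KO animals (TRAF2/Casp-8LPC-KO/RIPK3-/-) had the same deletions and lacked Ripk3 in every cell of the body. IKKβ triple KO animals (TRAF2/Casp-8/IKKbetaLPC-KO) had the same deletions and, in parenchymal cells, a further one of Ikbkb. Only the WT group therefore lacked Cre, and all 3 other groups carried the Traf2 and Casp8 deletions.

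Keratins are the intermediate filament proteins of epithelial cells, and a filament needs a type I and a type II keratin in equal amounts. Krt8 (type II) and Krt18 (type I) form the filament network of hepatocytes, and the bile ducts add Krt7 (type II) and Krt19 (type I). Krt20, a type I keratin, is known from intestinal epithelium, and Krt23, another type I keratin, is known as a keratin that is induced in injured liver. In whole-liver RNA, a lower signal from fewer cells of a type and one from less RNA per cell cannot be told apart.

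Among the 6 genes, Krt20 and Krt23 fell in the livers without RIPK3, and the other 4 passed the test in 0 of 6 comparisons. Krt20 was 3.61-fold lower in RIPK3 triple KO than in TRAF2/Casp8 KO and 5.85-fold lower than in WT, and Krt23 was 3.50-fold and 3.12-fold lower. Of all genes 0.149% fell from TRAF2/Casp8 KO to RIPK3 triple KO and 1.16% from WT (0.329% and 3.11% in either direction). In all 4 RIPK3 triple KO arrays the signals of both genes lay below those of all 12 other arrays, which held for 0.436% of all genes. Krt20 alone rose from RIPK3 triple KO to IKKβ triple KO, where 0.627% of genes rose and 2.00% passed in either direction. No keratin of the set differed between TRAF2/Casp8 KO and WT or between IKKβ triple KO and WT beyond the threshold of the test, where 3.31% and 0.0372% of all genes did.

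The array values are log2 signals after RMA, so a difference of 1 is a doubling. Groups were compared with limma in 1 model of the 4 genotypes, and a gene passed when its p-value, adjusted by the Benjamini-Hochberg method over all 35556 probe sets, was below 0.05. Errors of differences are standard errors (SE), intervals are 95% confidence intervals, and errors of means are SD with n = 4.

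**Figure D1:**
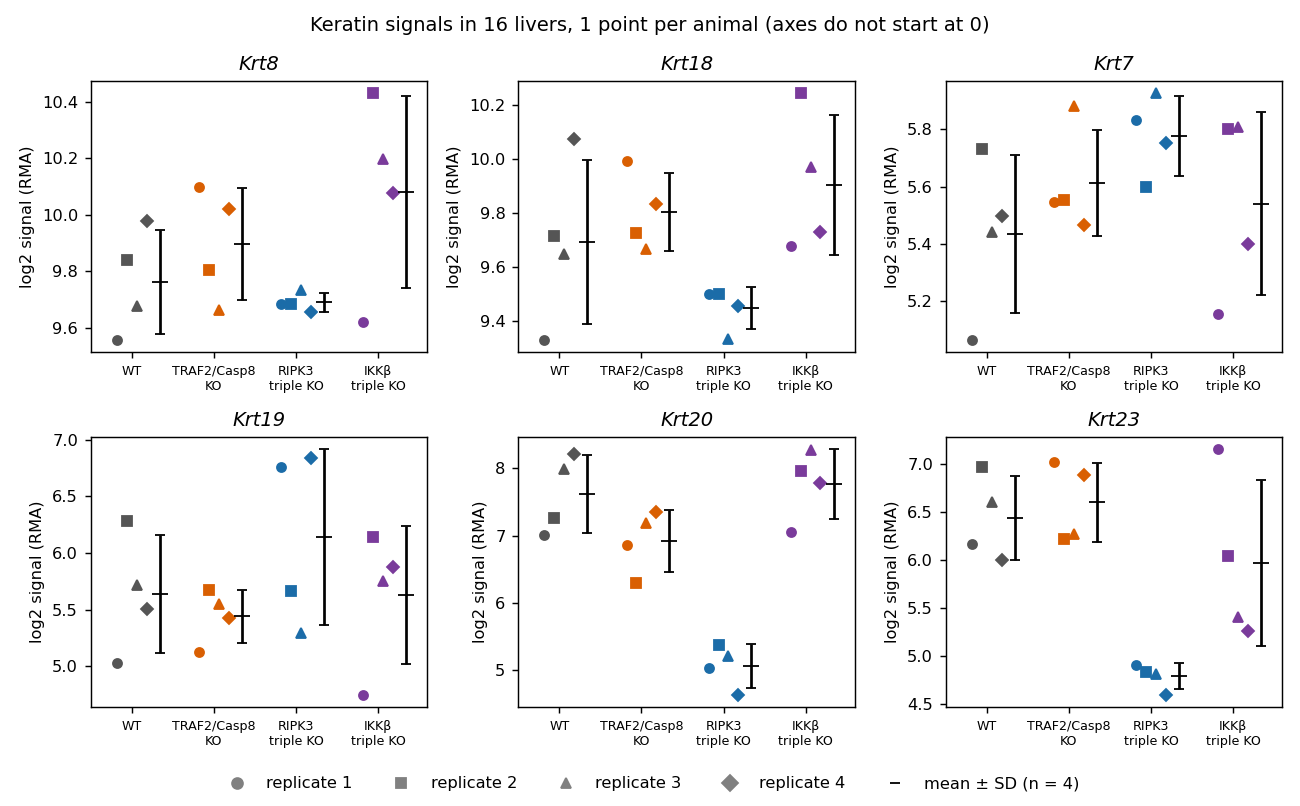
log2 signal (vertical axes, not starting at 0) of the 6 keratin genes in the 16 livers by genotype; each point is 1 animal, its shape is the replicate number, and bars are mean ± SD (n = 4). Krt20 at 4.63 to 5.38 and Krt23 at 4.60 to 4.91 in RIPK3 triple KO lie below every other array, while the groups of the other 4 genes overlap in most comparisons.

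The sequences upstream of the genes that fell are shown because Krt20 and Krt23 both fell in RIPK3 triple KO. They are also direct neighbours among protein-coding genes in the type I keratin cluster of chromosome 11. RefSeq (GRCm38.p6) sequences were found for 5 of the 6 genes. The 250 bases before the annotated start of Krt20 (chr11:99438154-99438403, minus strand) and of Krt23 (chr11:99493121-99493370, minus strand) are printed 5′ to 3′, with matches to the motifs searched in capitals.
Krt20: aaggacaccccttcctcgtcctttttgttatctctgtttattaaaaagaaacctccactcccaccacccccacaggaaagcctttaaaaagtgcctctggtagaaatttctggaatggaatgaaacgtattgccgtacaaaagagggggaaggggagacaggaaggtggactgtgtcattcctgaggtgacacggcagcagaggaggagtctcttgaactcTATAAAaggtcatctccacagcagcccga
Krt23: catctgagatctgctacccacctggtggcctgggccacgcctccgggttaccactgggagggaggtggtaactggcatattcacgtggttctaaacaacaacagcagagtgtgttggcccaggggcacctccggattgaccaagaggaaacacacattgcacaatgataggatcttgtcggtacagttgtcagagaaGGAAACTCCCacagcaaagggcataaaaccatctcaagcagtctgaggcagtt

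Both strands were searched for 4 motifs. The NF-κB type motif was GGGA followed, after any 4 bases, by the letters CC. The AP-1 type motif was TGANTCA. The TATA box was TATAAA, and the GC box was GGGCGG. Krt20 had 1 match, a TATA box 29 to 24 bases before the start, a motif held by 12.4% of 32851 windows of the same length. Krt23 had 1 match, an NF-κB type motif 53 to 44 bases before the start on the opposite strand, held by 17.6% of the windows. The 2 windows shared no motif, and the AP-1 type motif (6.75% of windows) and the GC box (32.7%) had no match in either. These matches are letters in a window and not measured binding sites.

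Krt8 and Krt18, the hepatocyte pair, passed in no comparison with all arrays in the fit. Krt8 read 9.76 ± 0.18 in WT, 9.90 ± 0.20 in TRAF2/Casp8 KO, 9.69 ± 0.03 in RIPK3 triple KO livers and 10.08 ± 0.34 in those of IKKβ triple KO. Krt18 read 9.69 ± 0.30, 9.80 ± 0.14, 9.45 ± 0.08 and 9.91 ± 0.26 in the same order. RIPK3 triple KO thus had the lowest and IKKβ triple KO the highest mean of each gene, but no pair of neighbours in that order passed the test.

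The widest gap for both genes lay between IKKβ triple KO and RIPK3 triple KO. The Krt18 signals were 9.68, 10.24, 9.97 and 9.73 in IKKβ triple KO replicates 1 to 4 and 9.50, 9.50, 9.34 and 9.46 in those of RIPK3 triple KO. The ranges did not overlap, as in 9.01% of all genes in this comparison, and the difference of 0.46 ± 0.15 did not pass (interval 0.14 to 0.77, adjusted p = 0.148). Krt8 differed by 0.39 ± 0.15 (interval 0.08 to 0.71, adjusted p = 0.218), with overlapping ranges. IKKβ triple KO replicate 1 read 9.62 for Krt8, against 10.08 to 10.43 in the other 3. Without it the Krt8 difference was 0.54 and passed (adjusted p = 0.0355). Against TRAF2/Casp8 KO, Krt18 in RIPK3 triple KO was lower by 0.36 ± 0.15 without overlap, which held for 6.87% of genes there, and did not pass (adjusted p = 0.432).

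Krt8 and Krt18 varied together from array to array. Each array held 1 animal, so differences between animals and between arrays cannot be told apart. After each genotype's mean was subtracted, the Krt8 and Krt18 signals over the 16 arrays gave a Pearson r of 0.83 and a Spearman rho of 0.81 (permutation test within genotypes, two-sided, p = 0.00117 and 0.00174). Adjusted over the 15 pairs of the 6 genes these were 0.0175 and 0.0261, and r was 0.81 without the 2 arrays farthest from the median of Krt8. No other pair of the 6 passed after adjustment. The likeness is not particular to this pair. The 3 genes outside the set most alike to Krt8 over the 16 arrays gave r of 0.86 to 0.87 with it after the same subtraction. Those most alike to Krt18 gave 0.76 to 0.81. For Krt20 and Krt23 the deviations gave r = −0.33 and rho = −0.27 (permutation p = 0.325 and 0.409). Since the RIPK3 triple KO arrays form a cluster of their own for these 2 genes, no value pooled over genotypes is given.

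**Figure D2:**
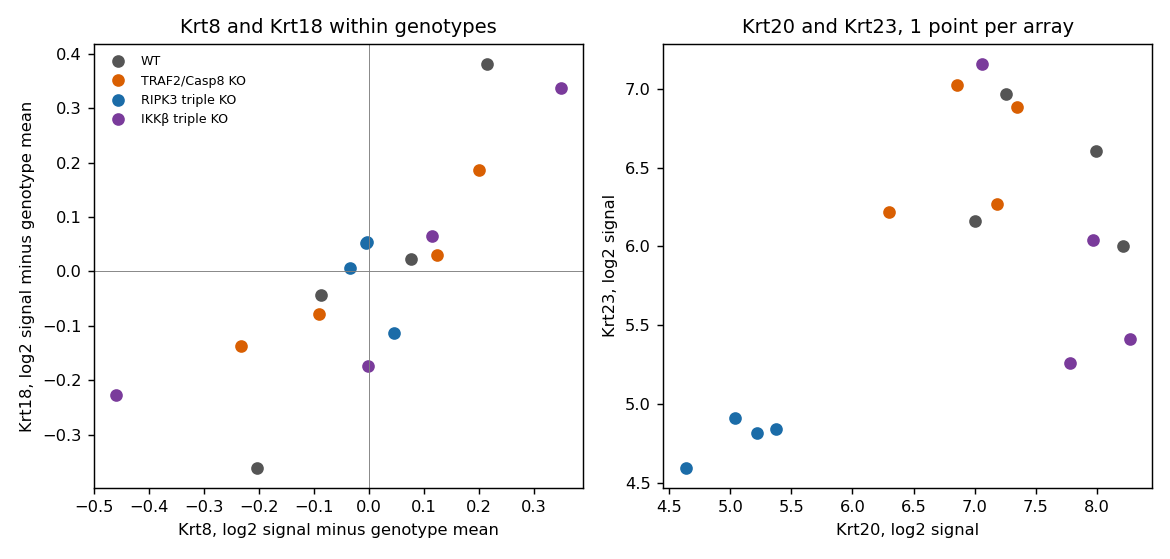
Left, deviations of Krt18 from the genotype mean against those of Krt8 in log2 units; right, log2 signals of Krt23 against Krt20; each point is 1 of 16 arrays, coloured by genotype. The Krt8 and Krt18 deviations rise together (r = 0.83), and the 4 RIPK3 triple KO arrays stand apart at the lower left of the Krt20 and Krt23 panel.

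Krt7 and Krt19, the duct keratins, passed in no comparison. Krt7 read 5.43 ± 0.28 in WT, 5.54 ± 0.32 in IKKβ triple KO, 5.61 ± 0.18 in TRAF2/Casp8 KO and 5.78 ± 0.14 in RIPK3 triple KO, an order in which no neighbours differed beyond their spread. Krt19 read 5.44 ± 0.23 in TRAF2/Casp8 KO, 5.63 ± 0.61 in IKKβ triple KO, 5.64 ± 0.52 in WT and 6.14 ± 0.78 in RIPK3 triple KO. For these 2 genes RIPK3 triple KO had the highest mean, while it had the lowest for the other 4.

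Krt19 split the RIPK3 triple KO livers. Its signals were 6.76 and 6.84 in replicates 1 and 4 and 5.67 and 5.29 in replicates 2 and 3. The first pair lay above all 12 arrays of the other genotypes, of which the highest was 6.29. The difference from TRAF2/Casp8 KO was 0.70 ± 0.37 (interval −0.09 to 1.48, adjusted p = 0.552), so the interval held both no change and a doubling.

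Most other measured markers of the bile duct epithelium rose from WT to TRAF2/Casp8 KO, while its keratins did not pass. Of 13 measured biliary markers, 9 passed as higher and 0 as lower in TRAF2/Casp8 KO against WT, where 2.17% of all genes passed as higher. The median was 0.79 against −0.01 over all genes. Prom1 (−0.61, without overlap), Muc1 (−0.97) and Sctr (−0.19) read lower without passing. Without WT replicate 1 and TRAF2/Casp8 KO replicate 4 (an alternative chosen after seeing the data), 6 rose. In the fit of all 16 arrays, the 9 that rose included Bicc1, an RNA-binding protein of duct cells (log2 1.22 ± 0.12, adjusted p = 6.63e-05). Also among the 9 were Sox9, a transcription factor of duct and progenitor cells (1.31 ± 0.15, adjusted p = 0.000147), and the tight junction gene Cldn7 (1.35 ± 0.15, adjusted p = 0.000186). In the same comparison Krt7 differed by 0.18 ± 0.16 (interval −0.17 to 0.52, adjusted p = 0.698) and Krt19 by −0.19 ± 0.37 (interval −0.97 to 0.59, adjusted p = 0.881). Averaged over the 13 markers, the signal was 5.45 to 5.63 in WT, 6.13 to 6.48 in TRAF2/Casp8 KO, 6.02 to 6.14 in livers without RIPK3 and 5.45 to 6.05 in IKKβ triple KO. The WT range lies below both TRAF2/Casp8 KO and RIPK3 triple KO, and the IKKβ triple KO range spans the gap through replicate 2 alone, the 3 others being at 5.63 or lower.

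In IKKβ triple KO against TRAF2/Casp8 KO, 5 of the 13 biliary markers fell and 0 rose past the threshold, where 0.903% of all genes fell. Prom1 (0.57), Muc1 (0.41) and Sctr (0.10) read higher without passing. Bicc1 fell by 1.01 (adjusted p = 0.000913) and Sox9 fell by 1.12 (adjusted p = 0.00137). Anxa13, an annexin of epithelial cells, fell by 1.81 (adjusted p = 0.00137). The count was 3 in a fit of these 2 genotypes alone, where Anxa13 was not among them (adjusted p = 0.0517). Krt7 differed by −0.07 ± 0.16 (interval −0.42 to 0.27) and Krt19 by 0.19 ± 0.37 (interval −0.60 to 0.97). In RIPK3 triple KO against WT, 5 markers rose and 0 fell, where 1.94% of all genes rose. The count was 2 when RIPK3 triple KO replicate 1 or WT replicate 3 was dropped. Dropping replicate 2 of either genotype or replicate 3 of RIPK3 triple KO left 3. Both duct keratins read higher without passing in RIPK3 triple KO against WT with all arrays in the fit. Krt7 differed by 0.34 ± 0.16 (interval −0.003 to 0.69, adjusted p = 0.356) and Krt19 by 0.50 ± 0.37 (interval −0.28 to 1.29, adjusted p = 0.595). In RIPK3 triple KO against TRAF2/Casp8 KO, of the 13 only Cldn7 passed. It fell by 1.00 (adjusted p = 0.0117), and the call ended without replicate 3 of RIPK3 triple KO or replicate 4 of TRAF2/Casp8 KO (adjusted p up to 0.0549). From RIPK3 triple KO to IKKβ triple KO, 3 of the 13 fell and 0 rose, where 1.38% of all genes fell. Sox9 fell by 0.91 (adjusted p = 0.00612), Bicc1 fell by 0.61 (adjusted p = 0.0227) and Anxa13 fell by 1.15 (adjusted p = 0.0252). Sox9 passed in all 17 alternatives, while the count was 1 without replicate 2 or 3 of RIPK3 triple KO or replicate 3 or 4 of IKKβ triple KO, and the Anxa13 call ended with the replicate block (adjusted p = 0.0508). Krt7 differed by −0.24 (adjusted p = 0.542) and Krt19 by −0.51 (adjusted p = 0.564) there.

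**Figure D3:**
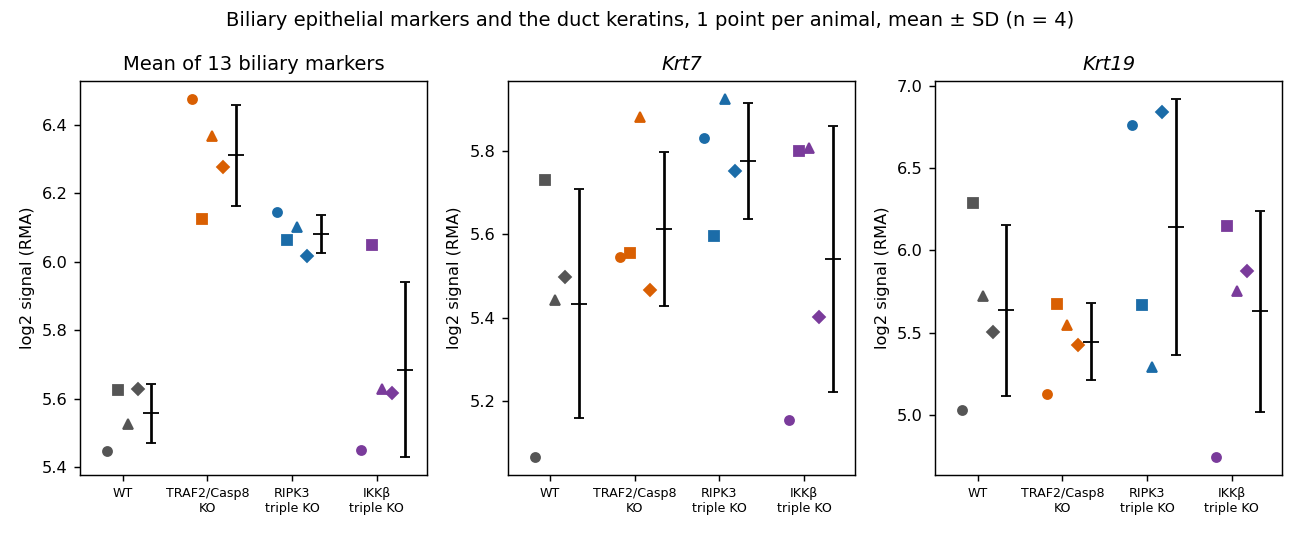
Mean log2 signal of 13 biliary epithelial markers (left), Krt7 (centre) and Krt19 (right) by genotype; points are animals, bars are mean ± SD (n = 4), and the axes do not start at 0. The marker mean is higher in TRAF2/Casp8 KO (6.13 to 6.48) than in WT (5.45 to 5.63), while the Krt7 and Krt19 groups overlap.

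Krt20 was the member with the largest differences. Its signal was 7.00, 7.26, 7.99 and 8.21 in WT replicates 1 to 4, and 6.86, 6.30, 7.18 and 7.35 in those of TRAF2/Casp8 KO. RIPK3 triple KO livers read 5.04, 5.38, 5.22 and 4.63, and those of IKKβ triple KO 7.06, 7.97, 8.27 and 7.78. The RIPK3 triple KO livers were the lowest 4 of the 16, and the other 3 genotypes overlapped.

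Against TRAF2/Casp8 KO, Krt20 was lower in RIPK3 triple KO by 3.61-fold (log2 −1.85 ± 0.31, interval −2.51 to −1.20, adjusted p = 0.0199). Dropping 1 array at a time gave differences of −2.06 to −1.71. The call ended when replicate 1, 3 or 4 of either genotype was dropped (adjusted p = 0.0554 to 0.0893) and stood when replicate 2 of either was. Against WT, Krt20 was lower by 5.85-fold (log2 −2.55 ± 0.31, interval −3.21 to −1.89, adjusted p = 0.000341), and it was 6.51-fold higher in IKKβ triple KO than in RIPK3 triple KO (log2 2.70 ± 0.31, adjusted p = 0.000383). These 2 calls held with each array left out (adjusted p up to 0.0022 and 0.00238). By size the fall ranked 5 of 18820 genes against TRAF2/Casp8 KO and 3 against WT. The 3 comparisons share the RIPK3 triple KO arrays and are not independent of each other.

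Between the genotypes that keep RIPK3, the Krt20 differences did not pass. TRAF2/Casp8 KO was below WT by 0.70 ± 0.31 (interval −1.35 to −0.04, adjusted p = 0.327), IKKβ triple KO above TRAF2/Casp8 KO by 0.85 ± 0.31 (interval 0.19 to 1.51, adjusted p = 0.341), and IKKβ triple KO above WT by 0.15 ± 0.31 (interval −0.51 to 0.81).

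Krt23 showed the same low group with less separation. Its signal was 6.16, 6.97, 6.61 and 6.0 in WT replicates 1 to 4, and 7.02, 6.22, 6.27 and 6.89 in those of TRAF2/Casp8 KO. RIPK3 triple KO livers read 4.91, 4.84, 4.82 and 4.60, and those of IKKβ triple KO 7.16, 6.04, 5.41 and 5.26. RIPK3 triple KO was again the lowest group and the tightest (SD 0.14), while the IKKβ triple KO livers reached from near that group to the highest value of all 16.

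Against TRAF2/Casp8 KO, Krt23 was lower in RIPK3 triple KO by 3.50-fold (log2 −1.81 ± 0.34, interval −2.54 to −1.08, adjusted p = 0.0431). This call was close to the threshold and ended when any 1 of the 8 arrays was dropped (adjusted p = 0.0527 to 0.164, differences −1.93 to −1.67). Against WT it was lower by 3.12-fold (log2 −1.64 ± 0.34, interval −2.37 to −0.92, adjusted p = 0.0198), a call lost without WT replicate 2 (adjusted p = 0.0703), WT replicate 3 (0.0639) or RIPK3 triple KO replicate 3 (0.0517). The signal was higher in IKKβ triple KO than in RIPK3 triple KO by 1.18 ± 0.34 without overlap, and the difference did not pass (interval 0.45 to 1.90, adjusted p = 0.109). IKKβ triple KO lay 0.63 ± 0.34 below TRAF2/Casp8 KO (interval −1.36 to 0.10) and 0.47 ± 0.34 below WT (interval −1.20 to 0.26). TRAF2/Casp8 KO differed from WT by 0.16 ± 0.34 (interval −0.56 to 0.89).

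Counted over the set, 2 of 6 keratins fell from TRAF2/Casp8 KO and 2 of 6 from WT to RIPK3 triple KO, and 1 of 6 rose from there to IKKβ triple KO. The ranges of 2 genotypes did not overlap for 3, 2 and 3 of the 6 in these comparisons, against 6.87%, 9.08% and 9.01% of all genes. In the 3 comparisons among the other genotypes limma called 0 of 6, and 1.02% of genes passed between IKKβ triple KO and TRAF2/Casp8 KO. At an unadjusted p under 0.05 there was 1 of 6 in each of these 3, against 16.4% of all genes for TRAF2/Casp8 KO minus WT, 10.7% for IKKβ triple KO minus TRAF2/Casp8 KO and 6.45% for IKKβ triple KO minus WT. In the comparisons with RIPK3 triple KO it was 3 of 6 for TRAF2/Casp8 KO, 2 of 6 for WT and 4 of 6 for IKKβ triple KO, against 11.1%, 15.6% and 16.7% of all genes. The median difference over the 6 genes was −0.28, −0.16 and 0.42 in the 3 comparisons with RIPK3 triple KO, in the order given, against −0.01 or nearer to 0 over all genes. The table holds no detection calls, so whether the low signals in RIPK3 triple KO exceed the array's background is not known, and the folds may understate the change.

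**Figure D4:**
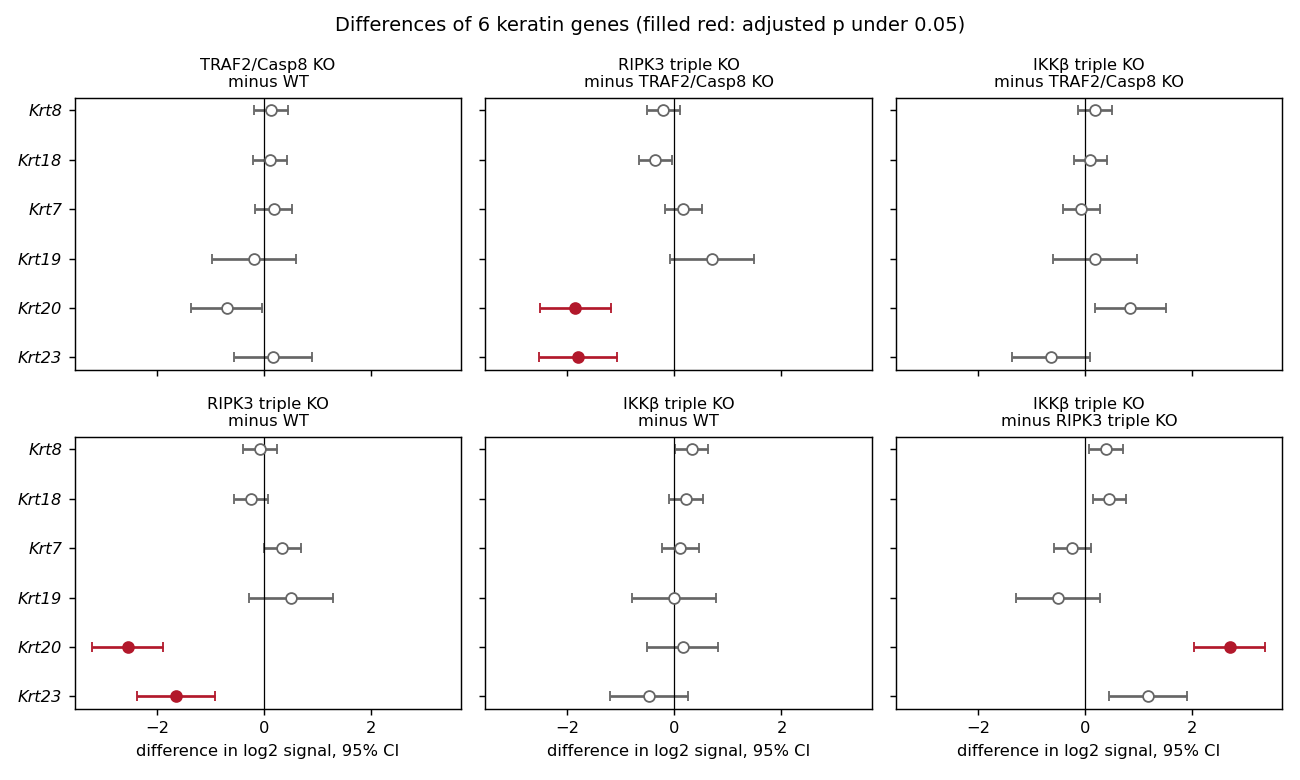
Differences in log2 signal (horizontal axes) of the 6 keratin genes in the 6 comparisons, with 95% confidence intervals from the limma model; filled red points passed at an adjusted p under 0.05. The 5 filled points are all differences of Krt20 or Krt23 that involve RIPK3 triple KO.

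Few other keratins passed. The 43 other keratin genes measured averaged 3.22 to 3.26 in TRAF2/Casp8 KO and 3.23 to 3.30 in WT. Array medians were 4.90 to 5.05. From such a level a fall could hardly be seen, so the counts do not show that other keratins were spared. Of these 43, 0 rose and 0 fell from TRAF2/Casp8 KO to RIPK3 triple KO by limma, with a median of 0.06. From WT to RIPK3 triple KO 1 rose, Krt222, a keratin-like gene (log2 0.61 ± 0.10, adjusted p = 0.00604), and from RIPK3 triple KO to IKKβ triple KO it fell by 0.48 (adjusted p = 0.0357, up to 0.111 and past the threshold only without replicate 1 of RIPK3 triple KO when 1 array was dropped). From WT to TRAF2/Casp8 KO 1 fell, Krt28, a hair follicle keratin (−0.42 ± 0.10, adjusted p = 0.0341, up to 0.116 with 1 array dropped, and past the threshold only without WT replicate 2 or 3). The keratin genes on either side of Krt20 and Krt23 on the chromosome, named here for their position after their values were seen, are Krt12, a cornea keratin, and Krt39, a hair keratin. From TRAF2/Casp8 KO to RIPK3 triple KO they differed by 0.26 ± 0.13 (adjusted p = 0.547) and −0.08 ± 0.11 (adjusted p = 0.842), and from WT by 0.01 and −0.06. Both belong to the 43 genes of low mean signal, and Krt39 read 2.75 to 3.01 in WT. These 2 genes therefore cannot show whether the fall was limited to Krt20 and Krt23.

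**Figure D5:**
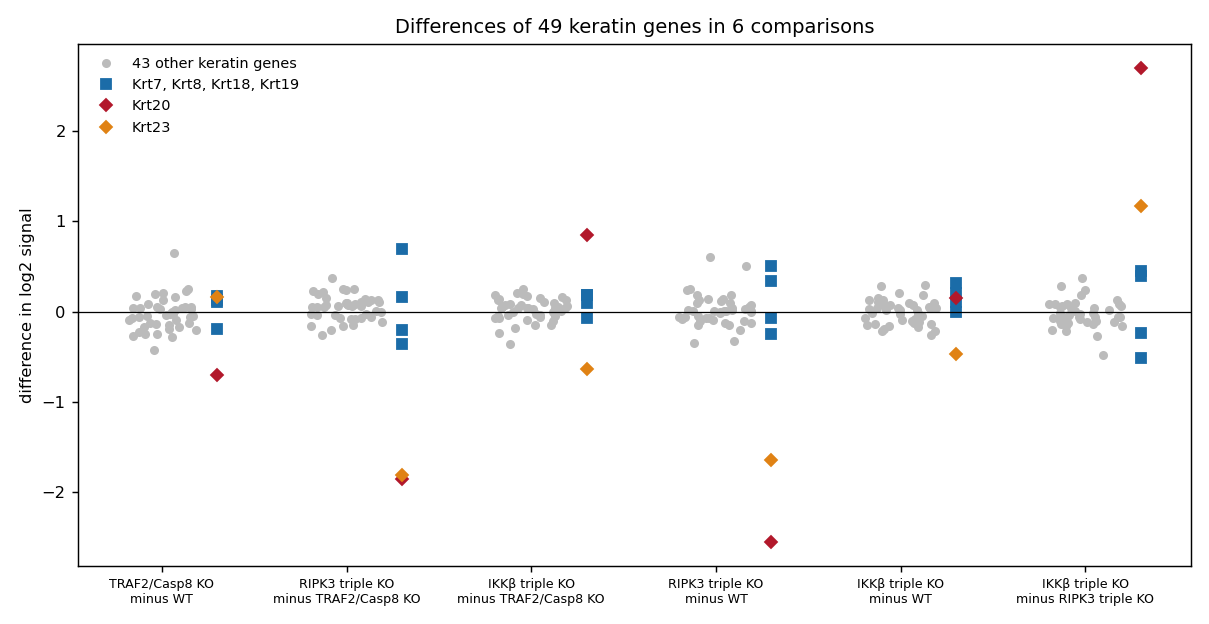
Differences in log2 signal (vertical axis) in the 6 comparisons (horizontal axis) of 43 other keratin genes (grey, spread sideways for legibility), Krt20 (red), Krt23 (orange) and the 4 other members (blue). Krt20 and Krt23 lie at −1.85 and −1.81 in RIPK3 triple KO minus TRAF2/Casp8 KO, outside the cloud of the other keratins. The mean signal of those 43 genes was low (3.22 to 3.26 in TRAF2/Casp8 KO), which leaves little room for a fall.

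Some genes whose proteins hold keratin filaments or gather in keratin aggregates passed. Of 22 genes for filament linkers, desmosomes and other filaments, 1 rose in TRAF2/Casp8 KO against WT, the desmosomal cadherin Dsg2 (0.46 ± 0.10, adjusted p = 0.0213), and it fell by 0.46 in IKKβ triple KO against TRAF2/Casp8 KO (adjusted p = 0.0411). Dsp, which anchors keratin to desmosomes, fell by 0.57 from RIPK3 triple KO to IKKβ triple KO (adjusted p = 0.0371). With the replicate block the Dsg2 calls ended (adjusted p = 0.0523 and 0.1002), as they did in fits of the 2 genotypes alone (0.0698 and 0.143), where the Dsp call ended too (0.121). The Dsg2 rise did not stand without replicate 4 of WT or replicates 1 or 3 of TRAF2/Casp8 KO (adjusted p up to 0.0715), and its fall ended in 6 and the Dsp call in 6 of 8 such drops (adjusted p up to 0.146 and 0.102; they stood without replicate 2 of TRAF2/Casp8 KO or 1 of IKKβ triple KO, and without replicate 1 of either genotype). In RIPK3 triple KO 0 of these 22 passed against TRAF2/Casp8 KO or WT, where 0.329% and 3.11% of all genes did. Of all genes 2.17% rose from WT to TRAF2/Casp8 KO, and 0.903% fell from there to IKKβ triple KO. The share that fell from RIPK3 triple KO to IKKβ triple KO was 1.38%.

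Of 17 stress genes linked to keratin aggregates, 2 rose and 1 fell in TRAF2/Casp8 KO against WT. Of all genes 2.17% rose and 1.14% fell there. Ubd, a ubiquitin-like modifier of aggregates, rose by 6.15 ± 0.23 (adjusted p = 2.02e-09), the annexin gene Anxa5 by 0.79 ± 0.13 (adjusted p = 0.00357), and Gclc, which makes glutathione, fell by 0.60 (adjusted p = 0.0236). The Gclc call ended when replicates 3 or 4 of WT, or replicates 1 or 4 of TRAF2/Casp8 KO, were dropped (adjusted p up to 0.0877). From TRAF2/Casp8 KO to RIPK3 triple KO 0 of the 17 passed, in the comparison where Krt20 and Krt23 fell and 0.329% of all genes passed. From WT to RIPK3 triple KO, where 1.94% of all genes rose and 1.16% fell, Ubd rose by 6.02. Gadd45b, a stress-response gene, fell by 1.18 there (adjusted p = 0.0334). That fall did not stand without replicates 2 or 4 of WT or replicates 1, 2 or 3 of RIPK3 triple KO (adjusted p up to 0.110). Gadd45b was 1.41 ± 0.27 higher in IKKβ triple KO than in RIPK3 triple KO (adjusted p = 0.0181, up to 0.0577 without replicate 2 of either). Ubd fell by 1.70 from TRAF2/Casp8 KO (adjusted p = 0.00181) and by 1.57 from RIPK3 triple KO (adjusted p = 0.0033) to IKKβ triple KO, calls that ended in fits of the 2 genotypes alone (adjusted p = 0.0517 and 0.0525). It was 4.45 ± 0.23 higher in IKKβ triple KO than in WT, where 0.0266% of all genes rose. To IKKβ triple KO, 0.903% of all genes fell from TRAF2/Casp8 KO, and 0.627% rose and 1.38% fell from RIPK3 triple KO.

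Markers of other epithelia passed only for Vil1 in the comparisons where Krt20 and Krt23 fell. Of 8 intestinal epithelial markers, 0 passed from TRAF2/Casp8 KO to RIPK3 triple KO, and 1 rose from WT to RIPK3 triple KO, the microvillus gene Vil1 (0.59 ± 0.14, adjusted p = 0.0490), opposite in direction to Krt20. With 1 array dropped that call stood only without RIPK3 triple KO replicate 3 (adjusted p up to 0.122), and it ended with the replicate block (adjusted p = 0.0874). Vil1 also rose from WT to TRAF2/Casp8 KO, by 0.99 ± 0.14 (adjusted p = 0.00144), a call that stood in all 18 alternatives. From TRAF2/Casp8 KO to IKKβ triple KO it fell by 0.83 (adjusted p = 0.0124), a call that ended without replicate 1 or 4 of TRAF2/Casp8 KO (adjusted p up to 0.0567). From RIPK3 triple KO to IKKβ triple KO, where Krt20 rose, Vil1 differed by −0.43 (adjusted p = 0.165). Averaged over the 8, the signal was 4.38 to 4.54 in WT, 4.42 to 4.64 in TRAF2/Casp8 KO, 4.40 to 4.61 without RIPK3 and 4.39 to 4.55 in IKKβ triple KO. Of 7 mesothelial, 7 stratified epithelial and 5 exocrine pancreas markers, 0 passed in any of the 6 comparisons. Their mean signals in WT were 5.26 to 5.43, 3.95 to 4.09 and 3.05 to 3.21, against array medians of 4.90 to 5.05. From the levels of the stratified and pancreas lists a fall could hardly be seen. The 9 hepatocyte markers averaged 12.30 to 12.72 over the 16 arrays and 0 of them passed in any comparison.

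Neutrophil and myeloid precursor markers read lower in RIPK3 triple KO, as Krt20 and Krt23 did, and the part of blood cells in those falls was not tested. Of 9 neutrophil and myeloid precursor markers 0 passed in any comparison, but the median was −1.42 from WT to RIPK3 triple KO and −0.99 from TRAF2/Casp8 KO. Their mean signal was 8.53 to 10.02 in WT, 8.13 to 9.53 in TRAF2/Casp8 KO, 8.43 to 9.51 in IKKβ triple KO and 6.74 to 8.74 in RIPK3 triple KO. RIPK3 triple KO replicate 4 had the top value of that last range, above WT replicates 3 and 4 (8.53 and 8.65), and the lowest Krt20 (4.63) and Krt23 (4.60) signals of all 16 arrays. Of 5 erythroid markers 0 passed, and they did not move as one. The median was −0.73 from WT to RIPK3 triple KO, with Tfrc higher (0.30). It was −0.39 from TRAF2/Casp8 KO, with Tfrc (0.40, without overlap) and Alas2 (0.10) higher. The mean erythroid signal in RIPK3 triple KO replicate 4 was 8.32, against 6.72 to 7.05 in replicates 1 to 3. Of 7 macrophage and 7 stellate cell markers 0 passed in any comparison.

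The genes most alike to Krt20 over the 16 arrays, by Pearson r of log2 signals, were Alad (0.93), Slc39a5 (0.93) and Stag3 (0.93). After subtraction of the genotype means the values were 0.72, 0.68 and 0.65. For Krt23 they were Rab11fip5 (0.87), Dgkh (0.87) and Gstt2 (0.86), and 0.73, 0.73 and 0.74 after subtraction. These values only rank likeness in pattern among 18820 genes over arrays that share genotypes, and they carry no test.

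The labels were checked against the targeted genes. Casp8 read 9.76 to 10.07 in WT and 8.50 to 9.11 in the 12 arrays labelled as deleted, and Ripk3 4.07 to 4.40 in RIPK3 triple KO and 5.62 to 6.42 elsewhere. Ikbkb read 7.07 to 7.30 in IKKβ triple KO and 7.50 to 8.06 elsewhere. Traf2 went against the labels, with 6.21 to 6.40 in WT and 6.87 to 7.53 in the 12 arrays labelled as deleted. Whether its probes lie in the deleted part is not given in the sources used here. Directions that compare WT with another genotype therefore rest on the labels. Of the targeted genes, Casp8 alone separated WT from the 12 other arrays in the labelled direction. By the well codes in the array names, plate column 5 held WT and IKKβ triple KO and column 7 the others, each genotype in rows of its own within its column. Plate position therefore cannot be told apart from genotype. WT replicate 1 stood apart on the second principal component (−50.5 against −22.3 to 27.0) and TRAF2/Casp8 KO replicate 4 differs from the rest in its array-name prefix. Without these 2 arrays the fall of Krt20 from TRAF2/Casp8 KO to RIPK3 triple KO was 1.71 (adjusted p = 0.0594) and that of Krt23 1.71 (adjusted p = 0.161).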

How the data were processed

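The authors deposited log2 values per probe set made with RMA, per the submitters' processing notes; its version and software are not named there, and the range of the values (0.89 to 13.65) gave the log base. All 16 value columns were used. Array medians were 4.90 to 5.05. The number of arrays, 4 per genotype, limits how precise a value is. All 35556 probe sets were fitted as deposited, of which 21218 carry 1 symbol, 1881 several and 12457 none; the brightest of a symbol's probe sets stood for its gene. limma 3.58.1 in R 4.3.3 (lmFit, eBayes, two-sided) gave every adjusted p; it was tested on simulated data. Symbols are those of GEO's platform annotation. Figures used matplotlib 3.10.9.

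The keratins, the 13 lists (159 of 175 listed genes measured), the tests and the naming rule were chosen with earlier results of these data known, so the lists are no independent evidence. Named were all 6 keratins, up to 3 genes per list and comparison with the smallest adjusted p, the targeted genes and the 3 genes most alike to each keratin that passed. Alternatives were another variance model, 2-genotype fits, a filter on dim probe sets, other scalings, a fit of single-symbol genes, a plate row block, array weights, a replicate block and leaving out arrays. The labels do not say whether animals shared a litter.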

Additional observations from a re-analysis of the deposited data

Results flagged for a closer look

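Of 176 groups of 4 arrays checked (31 genes and the mean signals of 13 lists in each genotype), 8 held a value far from its 3 group mates; chance gives about 1 in 20. None of the 24 groups of the 6 keratins was among them. The mean macrophage marker signal was 10.10 in WT replicate 1, against 9.16 to 9.21 in the others, and the mean erythroid signal 8.43 in WT replicate 2, against 7.71 to 7.81. Ubd read 4.49 in WT replicate 1 (others 4.02 to 4.09) and Krt39 read 3.01 there (others 2.75 to 2.78). Krt222 read 5.18 in TRAF2/Casp8 KO replicate 1 (others 4.98 at most). Gclc read 10.33 in RIPK3 triple KO replicate 4 (others 10.88 to 10.99). In IKKβ triple KO, Bicc1 read 8.39 in replicate 2 (others 7.87 to 7.95) and Vil1 3.41 in replicate 1 (others 3.80 to 3.84).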

How the results depend on the processing

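Over all alternatives, no difference past the threshold changed sign. From TRAF2/Casp8 KO to RIPK3 triple KO the number of keratins called, 2, was 1 with the replicate block (Krt23 at adjusted p = 0.0627), 0 without the 2 arrays that stand apart (an alternative chosen after seeing the data) and 0 to 1 with 1 array left out. From WT to RIPK3 triple KO it was 1 to 2, and from RIPK3 triple KO to IKKβ triple KO 1 to 2, with 1 array left out, the second being Krt8. Same-numbered deviations correlated at −0.23 to 0.36, over 0.1 in 6 of 24 pairs. Differently numbered pairs were not computed, so these values cannot decide whether the numbers mark shared conditions. The mean neutrophil marker signal rose from replicate 1 to 4 in TRAF2/Casp8 KO (8.13, 8.28, 8.72 and 9.53) and RIPK3 triple KO (6.74, 7.38, 7.66 and 8.74). It also rose in IKKβ triple KO (8.43, 8.60, 9.17 and 9.51), but not in WT (10.02, 8.86, 8.53 and 8.65). The replicate block changed no other call of the 6 keratins. Among the other named genes it ended both Dsg2 calls, that of Vil1 from WT to RIPK3 triple KO and that of Anxa13 from RIPK3 triple KO to IKKβ triple KO. Fits of 2 genotypes alone also ended the calls of Krt28 (adjusted p = 0.103), Krt222 (0.0662 and 0.0928), Cldn7 from TRAF2/Casp8 KO to RIPK3 triple KO (0.101), Bicc1 from RIPK3 triple KO to IKKβ triple KO (0.0902) and Vil1 from WT to RIPK3 triple KO (0.101) and from TRAF2/Casp8 KO to IKKβ triple KO (0.0734). Small differences that had not passed changed sign. Without the 2 arrays that stand apart, TRAF2/Casp8 KO minus WT was −0.019 for Krt18 and −0.022 for Krt23, and IKKβ triple KO minus WT was −0.016 for Krt7 and −0.052 for Krt20. With 1 array left out, Krt18 ranged from −0.0094 to 0.24 and Krt19 from −0.39 to 0.026 in TRAF2/Casp8 KO minus WT. In IKKβ triple KO minus TRAF2/Casp8 KO, Krt7 ranged from −0.16 to 0.057 and Krt18 from −0.012 to 0.18. In IKKβ triple KO minus WT, Krt7 ranged from −0.016 to 0.24, Krt19 from −0.21 to 0.29 and Krt20 from −0.052 to 0.39. The causes were not tested. Counts over all probe sets moved more. The 94 from TRAF2/Casp8 KO to RIPK3 triple KO were 40 in a 2-genotype fit, 62 with the replicate block and 39 to 89 with 1 array left out, and 50% of them were higher against 63.1% of 122 after median centring. The 845 from WT to RIPK3 triple KO were 328 in a 2-genotype fit and the 567 from RIPK3 triple KO to IKKβ triple KO 232. With array weights the 800 of TRAF2/Casp8 KO minus WT were 1594 and the 223 of IKKβ triple KO minus TRAF2/Casp8 KO were 509 (458 and 109 in 2-genotype fits), and the 7 of IKKβ triple KO minus WT ranged from 1 in a 2-genotype fit to 20. With 1 probe set per gene the 62 genes from TRAF2/Casp8 KO to RIPK3 triple KO were 136. Another probe set per keratin could not be tried, since each has 1.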

Other observations

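WT replicate 1 and IKKβ triple KO replicate 1 each had the lowest signal of their genotype for 5 of the 6 keratins (Krt7, Krt8, Krt18, Krt19 and Krt20). For Krt23 the IKKβ triple KO animal had the highest signal of all 16 livers, 7.16, and the WT animal had 6.16, between its group mates at 6.0 and 6.97. Their array weights were 0.461 and 0.597, the lowest of the 16. In no other array were more than 3 of the 6 genes the lowest of their genotype.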
